A study of Mus musculus with 12 samples.

Results

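The genes described here encode the proteins of the mitochondrial ribosome. They were chosen by symbol: every gene of the count table named Mrpl or Mrps with a number and at most 1 letter of a, b or c. This gave 78 of 54427 genes, of which 49 carry Mrpl (large subunit) and 29 carry Mrps (small subunit). Of these, 77 had enough counts to be tested among 17227 genes, namely 48 of the large and 29 of the small subunit. The gene left out was Mrpl53, listed at 0 counts in all 12 libraries. Of its 790 exonic nt, 695 also belong to exons of Gm42688 on the same strand, so a listed 0 does not show that the gene is silent.

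Mitochondria keep a ribosome of their own, descended from that of bacteria, which translates the few messages of the mitochondrial genome into core subunits of the respiratory chain. Its rRNAs come from mitochondrial DNA, whereas all of its proteins are made from nuclear genes and imported. Many of those proteins have a bacterial counterpart and others occur only in mitochondria. The brain depends on oxidative phosphorylation, and inherited defects of several of these genes cause respiratory chain disease.

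The tissue was mouse hippocampus, with 3 RNA-seq libraries for each of 4 genotypes. They are wild type (WT), 5xFAD alone, Ulk1OV alone, and the cross of both lines, 5xFAD;Ulk1OV. 5xFAD is a transgenic line that develops amyloid plaques, and Ulk1OV is labelled as overexpression of ULK1, the kinase that starts autophagy. The labels used here give no construct or promoter for the overexpression, no age and no word on whether replicates are separate animals. Every p-value is therefore set against library-to-library spread, which may be technical.

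Library totals ran from 16149992 to 18547132 counts. Ulk1 lay at 84.6 to 102 CPM (counts scaled to a common library size) in the Ulk1OV libraries, 85.1 to 98.5 in 5xFAD;Ulk1OV, 74.1 to 81.8 in WT and 63.5 to 86.3 in 5xFAD. The highest 5xFAD library thus lay above the lowest libraries labelled for overexpression. The library labelled 5xFAD;Ulk1OV replicate 3 did not match its label: App stood at 1310 CPM and Prnp at 954 CPM, against 2201 to 2667 and 2067 to 2510 CPM in the other 5 libraries that carry 5xFAD in their name. Uncorrected edgeR calls of single genes that use it are given both ways. Calls by DESeq2, or corrected for GC content and length, are given with it kept. Markers of dentate, CA1 and CA3 neurons and of the other 8 cell types checked were all detected in every library. Summed choroid plexus markers varied most, from 22.5 to 6338 CPM, with the highest values in 1 WT and 1 Ulk1OV library, and their part in the results was not tested. In bulk tissue, fewer cells of a type and less RNA per cell cannot be told apart.

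Together the 78 genes took between 0.223% (Ulk1OV replicate 1) and 0.262% (5xFAD;Ulk1OV replicate 1) of all counts. Counts per library of the genes tested ran from 125 to 1434. Per kilobase of the longest protein-coding transcript of the GENCODE basic set, the median gene stood at 20.5 CPM (large subunit 21.5, small subunit 18.1). The highest of the large subunit was Mrpl41, a protein found only in mitochondrial ribosomes, at 77.2 CPM per kilobase, and the lowest was Mrpl47, at 4.88. The highest of the small subunit was Mrps21, a protein with a bacterial counterpart, at 72.0 CPM per kilobase, and the lowest was Mrps25, at 4.89. Group means of Mrpl41, in CPM per kilobase (SD, n = 3 each), were 78.9 ± 3.81 (WT), 68.3 ± 1.85 (5xFAD), 80.9 ± 13.3 (Ulk1OV) and 80.9 ± 6.54 (5xFAD;Ulk1OV). Those of Mrps21 were 77.3 ± 4.82, 58.6 ± 11.4, 72.3 ± 12 and 79.6 ± 2.93 in the same order. The 5xFAD mean was the lowest for both genes, and neither passed a test. The per-kilobase level depends on which transcript sets the length.

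**Figure D1:**
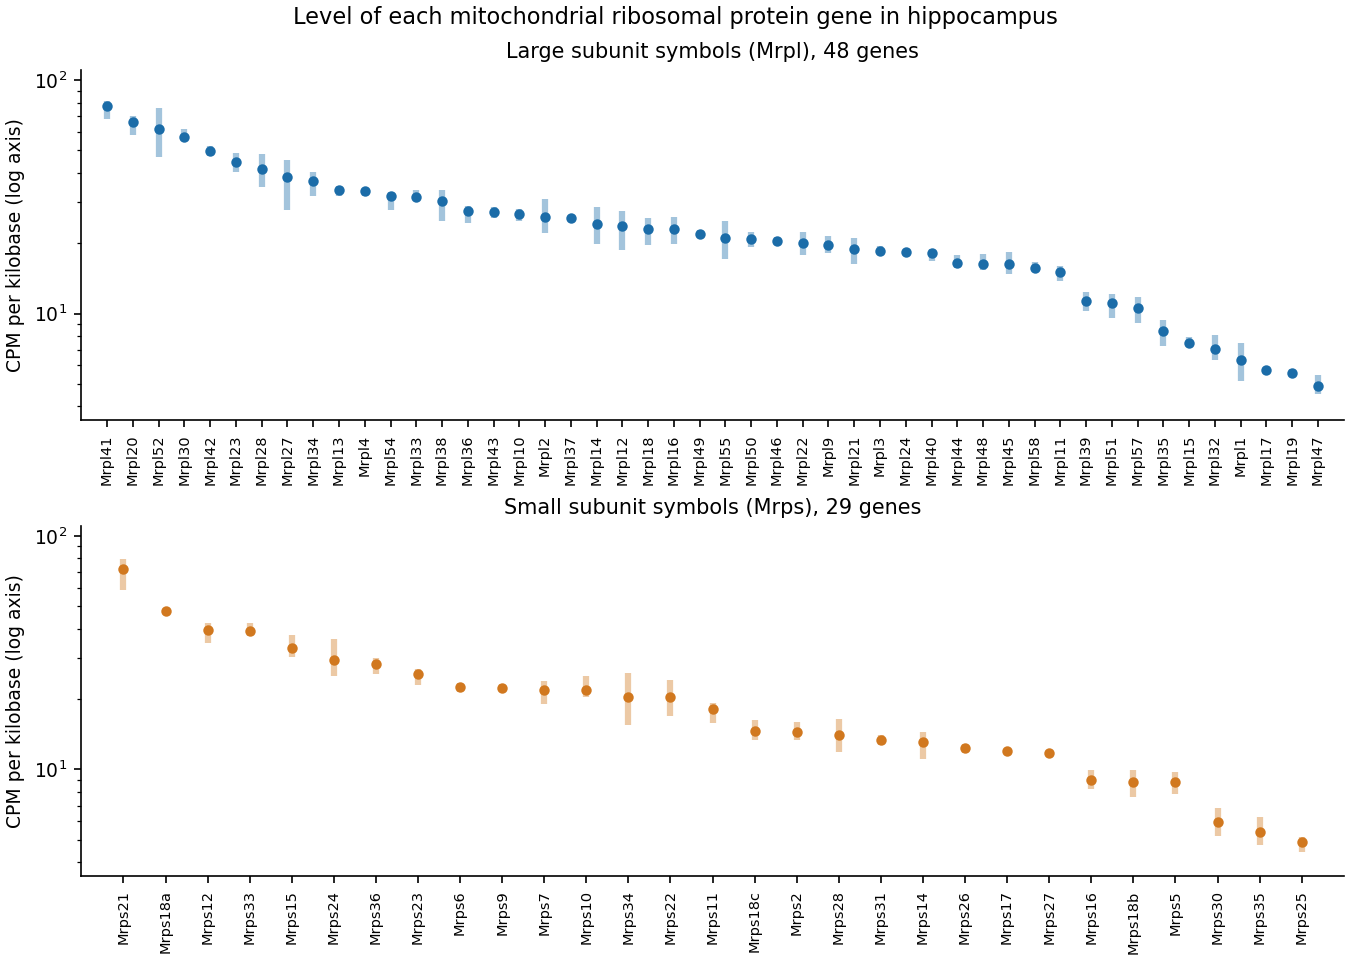
Level of each of the 77 genes in CPM per kilobase of its longest basic protein-coding transcript (log axis), ordered within the large (top) and small (bottom) subunit. Dots are means over 12 libraries and bars span the 4 group means. Mrpl41 (77.2) and Mrps21 (72.0) lead their subunits, and Mrpl47 (4.88) and Mrps25 (4.89) stand last.

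Between libraries these genes moved little. The median gene spanned 0.55 on the log2 CPM scale from its lowest to its highest library, compared with 0.75 for all genes tested and 0.58 for the 7258 genes whose mean lay within the same range of levels. The steadiest were Mrpl49 (0.19) and Mrpl37 (0.19) of the large subunit and Mrps9 (0.21) and Mrps17 (0.23) of the small. The widest spans belonged to Mrps34 (1.17), Mrps24 (1.14), Mrpl55 (1.09) and Mrpl27 (1.01). Pairs of the genes had a median Pearson correlation of 0.235 across the 12 libraries. It was 0.251 within the large subunit, 0.19 within the small and 0.233 between the subunits, so pairs within a subunit were about as alike as pairs across them. These correlations are descriptive and share the groups, the library depths and the base composition of each library.

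The symbol does not always give the place of the protein. Mrps30 and Mrps18a carry small-subunit symbols and sit in the large subunit, Mrpl58 is a peptide release factor built into the large subunit, and Mrps36 is a subunit of the oxoglutarate dehydrogenase complex of the citric acid cycle. Mean CPM of Mrps30 (SD, n = 3 each) was 18.7 ± 2.66 (WT), 20.5 ± 0.465 (5xFAD), 22.8 ± 2.73 (Ulk1OV) and 17.3 ± 0.938 (5xFAD;Ulk1OV). Its libraries labelled 5xFAD;Ulk1OV (16.2, 17.8 and 17.8 CPM) lay below those of Ulk1OV (19.8, 25.1 and 23.4 CPM), a log2 difference of -0.40 ± 0.13 (SE) that did not pass the test (edgeR adjusted p = 0.0728, DESeq2 adjusted p = 0.0388). The other 3 genes stayed close to level: the log2 differences of Mrps18a ran from -0.10 to 0.08, those of Mrpl58 from -0.17 to 0.14 and those of Mrps36 from -0.15 to 0.23 over the 5 comparisons, all short of the threshold.

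Shared upstream sequence was examined because the genes are often described as a co-regulated group. RefSeq windows of 300 bases (250 before to 50 after the start, GRCm38.p6) were at hand for 69 of the 78 genes, in 75 windows. Exact letters of 4 motifs were searched on both strands: GCATGCGC for NRF1, AAGATGGC for YY1, ACTTCCGG for ETS factors and GGGGCGGGG for SP1. The ETS letters stood in 16% of the windows against 3.9% of all 32851 windows, the YY1 letters in 16% against 2.7%, the NRF1 letters in 10.7% against 2.7% and the SP1 letters in 20% against 11.4%. By subunit, NRF1 letters were found in 14.6% of large and 3.7% of small windows, and YY1 letters in 12.5% and 22.2%. Median GC content was 58.7% in these windows and 52.7% in all, and its part in the difference was not tested. A match is a description of letters, not a binding site.

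Upstream stretches free of annotated exons are printed for 3 genes that passed the test in a comparison below, because they hold the same SP1 letters and differ in the sign of the interaction described below, negative for Mrpl1 and Mrps22 and positive for Mrpl2. The start meant is that of RefSeq. GENCODE also lists a transcript of Mrpl1 that starts further upstream, so the Mrpl1 stretch lies in an intron of that transcript. Each runs 5′ to 3′ on the gene's strand, with motif letters in capitals: SP1 letters 185 bases before the start in Mrpl1 (as the reverse complement), 152 before in Mrpl2 and 148 before in Mrps22, and the reverse complement of the ETS letters 11 before in Mrps22.
Mrpl1, GRCm38.p6 chr5:96209865-96210080, plus strand: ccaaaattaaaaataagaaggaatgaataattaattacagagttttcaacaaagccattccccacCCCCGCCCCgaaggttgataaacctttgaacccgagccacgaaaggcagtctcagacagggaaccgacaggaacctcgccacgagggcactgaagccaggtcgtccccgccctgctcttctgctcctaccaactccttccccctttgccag
Mrpl2, GRCm38.p6 chr17:46646023-46646220, plus strand: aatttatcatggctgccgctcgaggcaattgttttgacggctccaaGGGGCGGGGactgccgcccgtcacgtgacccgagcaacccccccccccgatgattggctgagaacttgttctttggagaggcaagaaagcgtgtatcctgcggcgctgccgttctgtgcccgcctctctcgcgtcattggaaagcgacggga
Mrps22, GRCm38.p6 chr9:98601680-98601929, minus strand: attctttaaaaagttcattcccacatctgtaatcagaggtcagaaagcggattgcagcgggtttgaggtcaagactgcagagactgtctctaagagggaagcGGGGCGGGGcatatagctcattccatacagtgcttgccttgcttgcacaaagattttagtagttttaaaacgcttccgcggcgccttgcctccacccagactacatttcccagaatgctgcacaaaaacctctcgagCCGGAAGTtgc

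Many of the genes start close to a gene on the other strand. A protein-coding gene on the opposite strand started within 1000 nt of the start of 33 of the 78 genes (42.3%), compared with 2368 of 21832 protein-coding genes of the table (10.8%). In 1 such pair both genes belong to the ribosome, Mrpl46 and Mrps11, whose starts lie 412 nt apart. Other partners are mitochondrial too: Mrps12 lies 172 nt from Sars2, the mitochondrial seryl-tRNA synthetase, Mrpl36 lies 29 nt from Ndufs6 and Mrpl47 lies 615 nt from Ndufb5, both complex I subunits. Exons of 32 of the 77 genes tested overlap another gene, 27 on the other strand and 7 on the same strand. No source used here says whether counting used strand, so these counts may include reads of the partner.

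The first comparison asked whether the genes differ between 5xFAD and WT. By the quasi-likelihood test of edgeR, none of the 77 reached an adjusted p under 0.05 in either direction, and 0.0% of all genes tested were called higher and 0.0% lower. DESeq2 called 1 as lower, Mrpl52, and 0.563% of all genes as lower. At an unadjusted p under 0.05, 4 of the 77 (5.19%) were higher in 5xFAD, against 6.0% of all genes, and 12 (15.6%) were lower, against 6.41% of all genes. The median log2 fold change was -0.06 (large subunit -0.05, small subunit -0.07), beside 0.00 for all genes tested. Of the 77 genes, 52 had a negative and 25 a positive fold change.

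Mrpl52, a protein of the large subunit with no bacterial counterpart, had the smallest p in this comparison. It stood at 30.2, 30.8 and 30.4 CPM in WT and at 22.1, 24.1 and 19 CPM in 5xFAD. Every 5xFAD library lay below every WT library, with a log2 fold change of -0.49 ± 0.11 (SE) and an edgeR adjusted p of 0.214. Genes named for a small p tend to separate in the same libraries, so separation adds no support here or below. The share of all genes with separate groups was not computed. Mrpl12, which forms the stalk that receives translation factors, stood at 34.6, 34.4 and 29.4 CPM in WT and at 25.4, 22.6 and 25.8 CPM in 5xFAD. These values did not overlap either (log2 fold change -0.41 ± 0.11, edgeR adjusted p = 0.235). On the higher side, Mrpl1, a protein of the stalk at the tRNA exit, stood at 20.1, 17.3 and 17.4 CPM in WT and at 22.9, 29.3 and 24.9 CPM in 5xFAD. Here the 5xFAD libraries were all above WT (log2 fold change 0.49 ± 0.13, edgeR adjusted p = 0.235). Among small-subunit genes the smallest p on each side belonged to Mrps5, at the mRNA entry channel (-0.25 ± 0.08, edgeR adjusted p = 0.278), and to Mrps22 (0.28 ± 0.10, edgeR adjusted p = 0.287).

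The second comparison set 5xFAD;Ulk1OV against 5xFAD, that is, ULK1 overexpression on the amyloid background. Again none of the 77 passed the edgeR test, while 0.0464% of all genes were called higher and 0.0% lower. DESeq2 called 6 of the 77, all higher (7.79%, against 2.21% of all genes), among them Mrpl52, Mrpl12, Mrpl38, Mrpl14 and Mrps34. At an unadjusted p under 0.05, 22 of the 77 (28.6%) were higher in 5xFAD;Ulk1OV, against 8.36% of all genes, and 2 (2.60%) were lower, against 9.07% of all genes. The 22 comprised 13 of 48 large-subunit and 9 of 29 small-subunit genes, and the 2 lower genes were Mrpl1 and Mrpl39. The median log2 fold change was 0.11 (large 0.11, small 0.11), beside 0.00 for all genes, with 56 genes positive and 21 negative. Without the library labelled 5xFAD;Ulk1OV replicate 3, 16 were higher, 3 were lower and the median was 0.12. Of all 17227 genes, 1471 were then higher and 1630 lower, with a median of -0.015. This comparison and the first share the 5xFAD libraries, so their opposite signs are not independent.

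Mrpl52 and Mrpl12 had the smallest p here too. Mrpl52 stood at 34.5, 36.0 and 35.1 CPM in 5xFAD;Ulk1OV, above the 22.1, 24.1 and 19 CPM of 5xFAD (log2 fold change 0.70 ± 0.11, edgeR adjusted p = 0.0511). Mrpl12 stood at 37.7, 34.6 and 36.5 CPM against 25.4, 22.6 and 25.8 (0.56 ± 0.11, edgeR adjusted p = 0.06). Mrpl38, which occurs only in mitochondrial ribosomes, followed with 0.44 ± 0.10 (edgeR adjusted p = 0.0793). Both Mrpl52 and Mrpl12 had non-overlapping groups, in the same libraries that gave their small p. In the small subunit the leading genes were Mrps34 (0.56 ± 0.17, edgeR adjusted p = 0.129), Mrps28 (0.46 ± 0.15, edgeR adjusted p = 0.137) and Mrps21 (0.44 ± 0.14, edgeR adjusted p = 0.14).

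The positive lean of the genes went with base composition and length. Their transcripts are short, with a median of 1316 nt against 2950 nt for all genes tested with a transcript, and have the same median GC content of 49.9%. Across the 77 genes, the log2 fold change of 5xFAD;Ulk1OV against 5xFAD had a Spearman correlation of 0.55 with GC content and -0.39 with length. Of the 38 genes above the median GC content, 16 were higher at an unadjusted p under 0.05, and of the 39 at or below it, 6 were. Whole libraries differed in the same way. Over 17111 genes with a transcript, the correlation of a gene's deviation from its 12-library mean with GC content was 0.368, 0.396 and 0.144 in the 5xFAD;Ulk1OV libraries and 0.038, -0.431 and -0.221 in the 5xFAD libraries. When the trend of every library with GC content and length was taken out by loess, 9 of the 77 were higher at an unadjusted p under 0.05 (11.7%, against 4.23% of all genes) and 8 were lower (10.4%, against 6.53%). The median was -0.01, beside -0.03 for all genes. Correlations with GC content and length were then -0.10 and 0.25, under a correction built to remove such trends. For 5xFAD against WT the same correction gave 5 higher (6.49%, against 6.08% of all genes), 4 lower (5.19%, against 3.57%) and a median of 0.02, beside 0.04 for all genes.

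**Figure D2:**
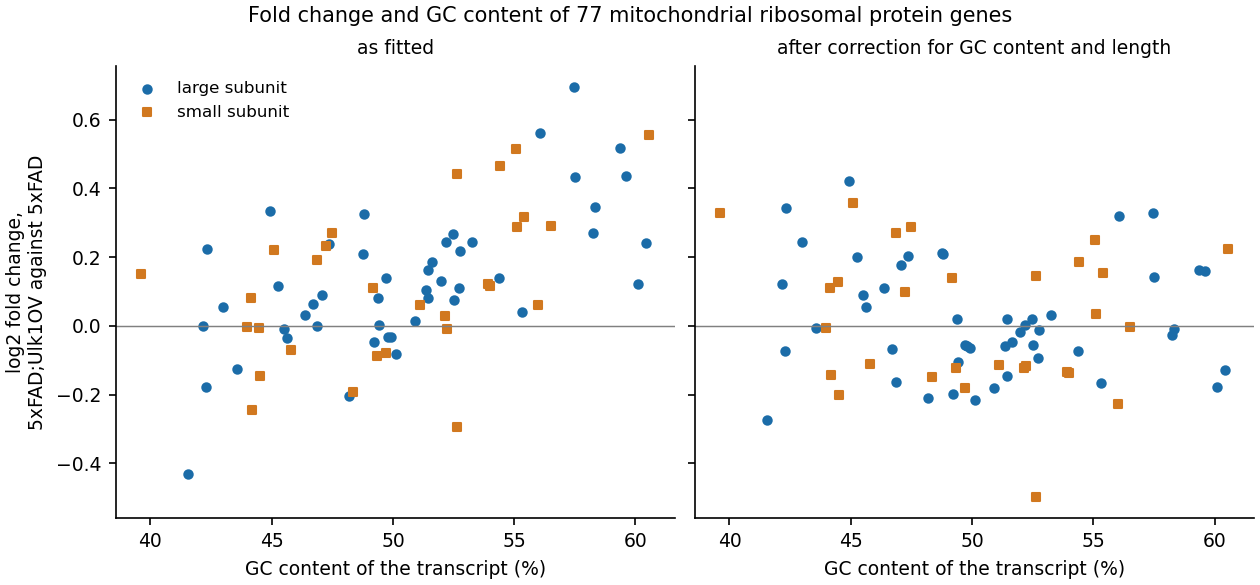
Log2 fold change of 5xFAD;Ulk1OV against 5xFAD for the 77 genes by GC content of the longest basic protein-coding transcript (%). Values are as fitted (left) and with the trend of every library taken out (right). Circles are large-subunit and squares small-subunit genes. The Spearman correlation with GC content is 0.55 on the left and -0.10 on the right, where the correction is built to remove it. The correlation with length goes from -0.39 to 0.25.

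For each gene the deviation from its 12-library mean was taken on the log2 CPM scale, and the median over the 77 genes was computed per library. It was 0.01, 0.04 and -0.03 in WT, -0.04, -0.06 and -0.08 in 5xFAD, -0.11, 0.16 and 0.08 in Ulk1OV, and 0.05 in all 3 libraries labelled 5xFAD;Ulk1OV. The 5xFAD libraries lay below every WT and every 5xFAD;Ulk1OV library, whereas the Ulk1OV libraries held both the lowest and the highest value. The SD within a group was 0.14 in Ulk1OV and between 0.00 and 0.04 in the other groups, pooled 0.07.

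**Figure D3:**
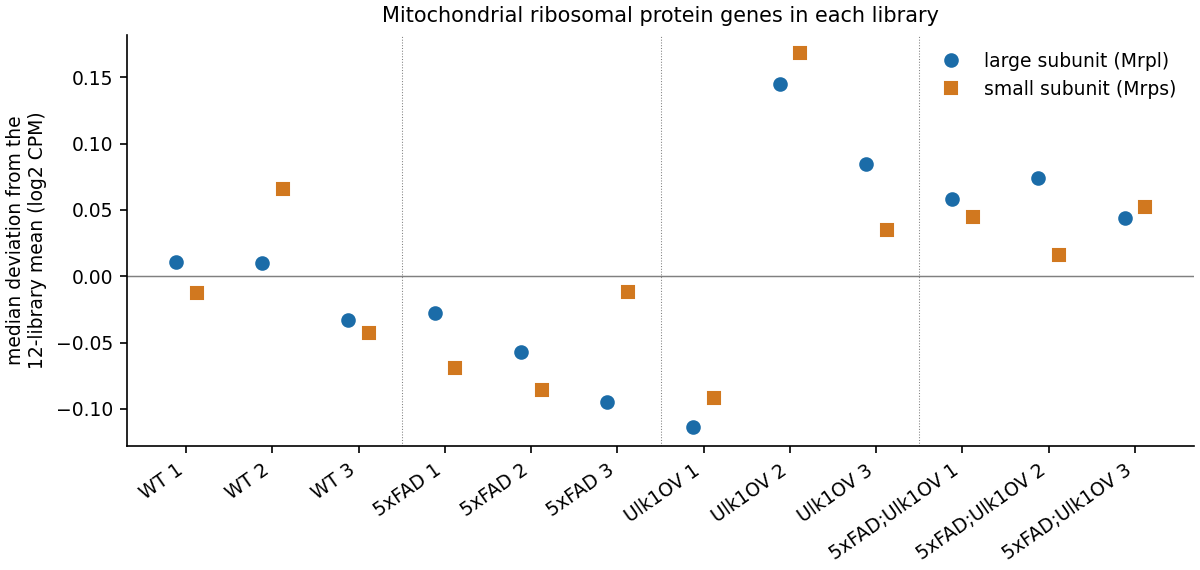
Median deviation of the large-subunit (circles, 48) and small-subunit (squares, 29) genes from their 12-library means (log2 CPM) in each library, grouped by label. The Ulk1OV libraries ranged from -0.11 to 0.15 (large) and from -0.09 to 0.17 (small).

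No difference between the subunits exceeded the spread between libraries. The large-subunit median minus the small-subunit median, per library, had means of -0.01 ± 0.04 (WT), 0.00 ± 0.07 (5xFAD), 0.00 ± 0.04 (Ulk1OV) and 0.02 ± 0.03 (5xFAD;Ulk1OV) on the log2 scale (SD, n = 3 each). All 4 means were smaller than their SD. In the fitted comparisons the subunit medians were -0.05 and -0.07 for 5xFAD against WT, 0.11 and 0.11 for 5xFAD;Ulk1OV against 5xFAD, 0.05 and 0.04 for Ulk1OV against WT and 0.00 and 0.00 for 5xFAD;Ulk1OV against Ulk1OV. Genes with a bacterial counterpart (46 tested) and genes found only in mitochondria (30 tested) were also close, with medians of -0.07 and -0.04, 0.12 and 0.07, 0.05 and 0.05, and 0.01 and 0.00 in the same order.

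**Figure D4:**
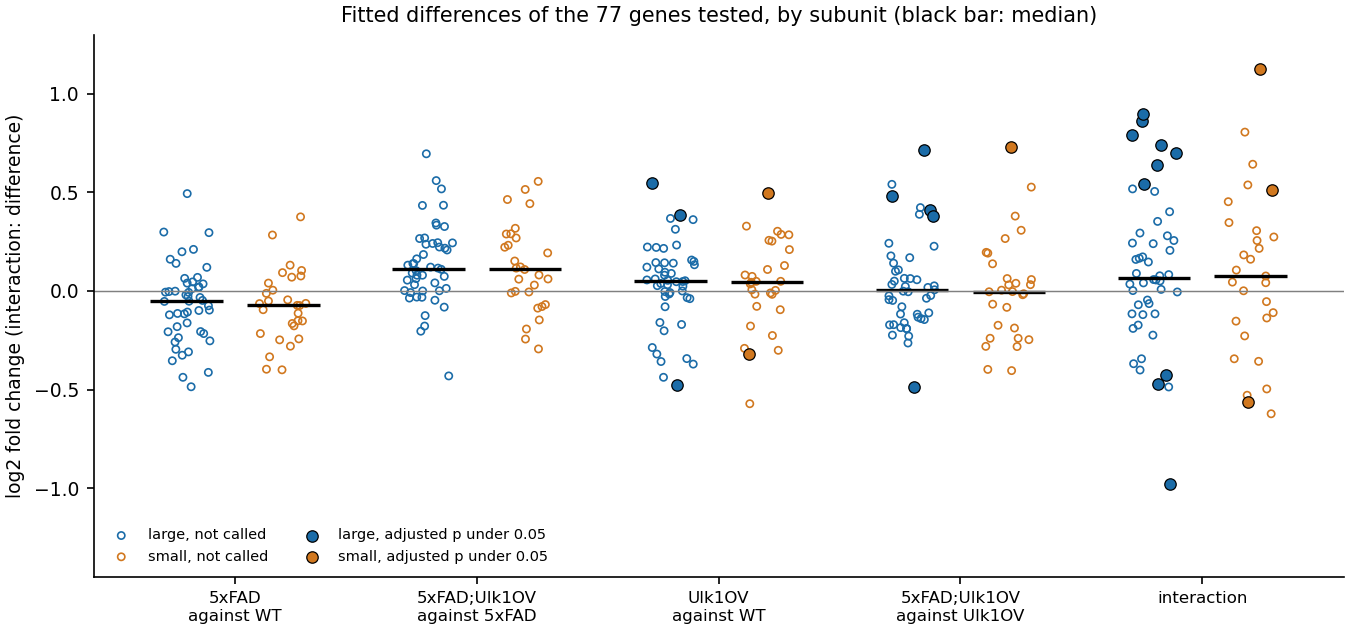
Fitted log2 fold changes of the 77 genes in 4 comparisons, and the interaction, for large (blue) and small (orange) subunit. Filled points passed the edgeR test at an adjusted p under 0.05, 0 genes in each of the first 2 comparisons, 5 in Ulk1OV against WT, 6 in 5xFAD;Ulk1OV against Ulk1OV and 13 in the interaction. Black bars are medians.

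Single genes passed the test when Ulk1OV was set against WT, the effect of overexpression without the amyloid transgenes. Of the 77, 3 were higher (against 2.14% of all genes called higher) and 2 were lower (2.60%, against 3.04% of all genes). At an unadjusted p under 0.05, 13 were higher (16.9%, against 11.5%) and 9 lower (11.7%, against 12.6%). With 2 or 3 genes a side, the called shares lay near those of all genes. The median log2 fold change was 0.05.

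Mrpl1 stood at 22.3, 28.0 and 29.9 CPM in Ulk1OV and at 20.1, 17.3 and 17.4 CPM in WT. It rose by a log2 fold change of 0.55 ± 0.13 (SE), or 1.46-fold (edgeR adjusted p = 0.0355). Mrps22, a small-subunit protein with no bacterial counterpart, stood at 27.1, 27.1 and 32.1 CPM in Ulk1OV and at 20.2, 20.8 and 20.2 CPM in WT. All Ulk1OV libraries were above WT, a rise of 0.50 ± 0.10, or 1.41-fold (edgeR adjusted p = 0.0251). Mrpl18, of the central protuberance, stood at 29.5, 32.1 and 32.4 CPM in Ulk1OV and at 22.9, 23.2 and 25.7 CPM in WT, again without overlap (0.39 ± 0.10, 1.31-fold, edgeR adjusted p = 0.045). Exons of Mrpl18 share 141 nt with Tcp1 on the other strand.

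Mrpl28, a large-subunit protein with a bacterial counterpart, stood at 32.2, 41.2 and 38.1 CPM in Ulk1OV and at 50, 52 and 53 CPM in WT. It fell by 0.47 on the log2 scale (SE 0.11, 0.720 of the WT level, edgeR adjusted p = 0.033). Mrps5 stood at 35.6, 35 and 34.5 CPM in Ulk1OV and at 44.0, 44.1 and 43.3 CPM in WT. Mrps5 fell by 0.32 (SE 0.08, 0.801 of the WT level, edgeR adjusted p = 0.0437). The SDs were 0.570 and 0.433 CPM, but an SD from 3 libraries is itself imprecise. After the correction for GC content and length, Mrpl18 (0.37 ± 0.09, edgeR adjusted p = 0.0395) and Mrps5 (-0.37 ± 0.09, edgeR adjusted p = 0.0413) still passed. Mrpl1 (0.42 ± 0.12, edgeR adjusted p = 0.0696), Mrps22 (0.37 ± 0.11, 0.0723) and Mrpl28 (-0.27 ± 0.10, 0.133) did not. Each of the 5 calls ended when single libraries were left out, 3 such libraries for Mrps22, 5 each for Mrpl1 and Mrpl28, 9 for Mrps5 and 10 for Mrpl18, with adjusted p up to 0.133, 0.162, 0.142, 0.172 and 0.175 in that order. Without Ulk1OV replicate 3, 0 of the 77 genes passed, and the share of all genes in that fit is not given. On GRCm38 the 5 genes, with their strand, span Mrpl1 chr5:96209493-96266727 (plus), Mrps22 chr9:98588730-98601660 (minus), Mrpl18 chr17:12911349-12916345 (minus), Mrpl28 chr17:26123500-26126613 (plus) and Mrps5 chr2:127587222-127606829 (plus).

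The fourth comparison set 5xFAD;Ulk1OV against Ulk1OV, the effect of the amyloid transgenes on the overexpression background. Of the 77, 5 were higher (6.49%, against 3.67% of all genes called higher) and 1 was lower (against 2.43% of all genes). At an unadjusted p under 0.05, 13 were higher (16.9%, against 12.7%) and 7 lower (9.09%, against 12.1%). The median log2 fold change was 0.00. With the library labelled 5xFAD;Ulk1OV replicate 3 left out, 3 of the 77 were called higher and 0 lower. In that fit 883 of all 17227 genes were called higher and 739 lower. At an unadjusted p under 0.05, 12 of the 77 were then higher, 7 were lower and the median was 0.02. Of all 17227 genes, 2386 were then higher and 2399 lower, with a median of -0.015. With that library kept and each library's GC and length trend taken out, the larger count moved to the lower side. At an unadjusted p under 0.05, 7 of the 77 were then higher (9.09%, against 8.88%) and 14 lower (18.2%, against 9.9%). Their median was -0.054, beside -0.02 for all genes. This comparison shares the Ulk1OV libraries with the previous one.

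Mrpl27, which reaches towards the peptidyl transferase centre, stood at 28.3, 38.0 and 37.2 CPM in 5xFAD;Ulk1OV and at 18.8, 21.6 and 22.6 CPM in Ulk1OV. The groups did not overlap, and it rose by 0.72 ± 0.14 (1.64-fold, edgeR adjusted p = 0.0194). Mrps34, a small-subunit protein found only in mitochondria, stood at 27.4, 22.9 and 20.7 CPM against 12.2, 17.3 and 13.3 CPM. It rose by 0.73 ± 0.17 (1.66-fold, edgeR adjusted p = 0.0277), but its exons share 763 nt with Nme3 on the same strand and 1309 nt with Mapk8ip3 on the other, so its counts are uncertain. Mrpl57, of the large subunit and without a bacterial counterpart, stood at 33.8, 32.4 and 35.8 CPM against 24.7, 28.1 and 25.6 CPM (0.38 ± 0.09, edgeR adjusted p = 0.0325).

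Mrpl2, next to the peptidyl transferase centre, stood at 35.8, 31.2 and 28.5 CPM against 20.3, 25.5 and 22.4 CPM (0.48 ± 0.13, edgeR adjusted p = 0.0486). Mrpl52 stood at 34.5, 36.0 and 35.1 CPM against 22.8, 29.2 and 27.4 CPM (0.41 ± 0.11, edgeR adjusted p = 0.0466). Mrpl1 was the only one of the 6 lower in 5xFAD;Ulk1OV, at 19.8, 18.2 and 19.2 CPM against 22.3, 28.0 and 29.9 CPM (-0.49 ± 0.13, edgeR adjusted p = 0.0444). In all 3 genes every library of one group lay beyond every library of the other, in the same libraries that gave the calls. Without the library labelled 5xFAD;Ulk1OV replicate 3, Mrpl27, Mrps34 and Mrpl2 still passed (edgeR adjusted p = 0.0258, 0.0197 and 0.0319) and Mrpl57, Mrpl52 and Mrpl1 did not (0.0556, 0.06 and 0.0594). After the correction for GC content and length, Mrpl27 (0.59 ± 0.13, edgeR adjusted p = 0.0388) and Mrpl57 (0.54 ± 0.09, 0.0189) passed, and Mrps14 (0.58 ± 0.13, 0.0392) did so in addition. Mrps34 (0.42 ± 0.14, edgeR adjusted p = 0.131), Mrpl1 (-0.32 ± 0.12, 0.169), Mrpl2 (0.22 ± 0.12, 0.325) and Mrpl52 (0.11 ± 0.10, 0.603) did not, each at a smaller fold. Without 5xFAD;Ulk1OV replicate 1, 0 of the 77 genes passed, and the share of all genes in that fit is not given. The genes not yet placed span Mrpl27 chr11:94653767-94660089 (plus), Mrps34 chr17:24895116-24897502 (plus), Mrpl57 chr14:57826234-57829296 (plus), Mrpl2 chr17:46646229-46650139 (plus) and Mrpl52 chr14:54426909-54429756 (plus) on GRCm38.

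**Figure D5:**
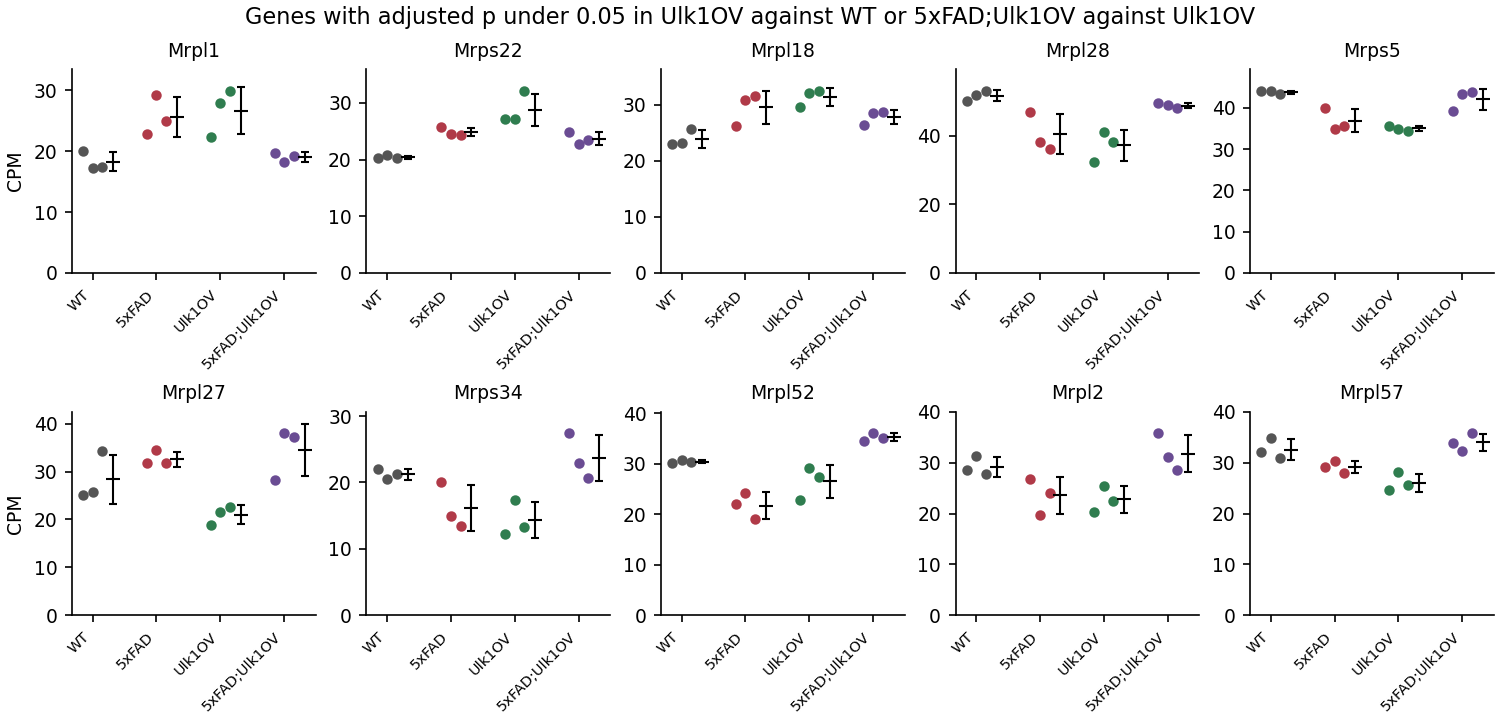
CPM of the 10 genes that passed the edgeR test in Ulk1OV against WT or in 5xFAD;Ulk1OV against Ulk1OV, from 0. Points are the 3 libraries of each group, with the mean and SD to their right. The Ulk1OV libraries of Mrps5 (34.5 to 35.6) lie below those of WT (43.3 to 44.1), and the means of Mrpl1 and Mrps22 are highest in Ulk1OV.

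The interaction asked whether the effect of ULK1 overexpression differs between the 5xFAD and the WT background. It is positive where the 5xFAD;Ulk1OV level exceeds what the single labels add up to on the log2 scale. Of the 77, 9 passed as positive (11.7%, against 6.8% of all genes) and 4 as negative (5.19%, against 5.96%). At an unadjusted p under 0.05, 15 were positive (19.5%, against 14.8%) and 12 negative (15.6%, against 14.6%). The median was 0.08, beside -0.01 for all genes. With the library labelled 5xFAD;Ulk1OV replicate 3 left out, 12 of these 13 passed, Mrpl18 did not (edgeR adjusted p = 0.0517), and the median was 0.09. In that fit 9 of the 77 passed as positive and 4 as negative, where 1328 and 1265 of all 17227 genes did. There were then 14 positive and 10 negative genes at an unadjusted p under 0.05. Of all 17227 genes, 2643 were positive and 2757 negative at that threshold, with a median of -0.021.

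For each of the 9 positive genes the mean was lower in 5xFAD and in Ulk1OV than in WT and higher in 5xFAD;Ulk1OV than in either. Mrpl14, on the face of the large subunit turned to the small one, had means of 17.4 ± 2.26 (WT), 12.8 ± 0.514 (5xFAD), 13.7 ± 1.65 (Ulk1OV) and 18.4 ± 0.639 CPM (5xFAD;Ulk1OV) (SD, n = 3 each). Those of Mrps5 were 43.8 ± 0.433, 36.9 ± 2.77, 35.1 ± 0.570 and 42.1 ± 2.52 CPM in the same order. The interaction was 0.86 ± 0.18 for Mrpl14 (edgeR adjusted p = 0.0107) and 0.51 ± 0.12 for Mrps5 (0.0156). Of the negative genes, Mrpl1 had means of 18.3 ± 1.59, 25.7 ± 3.28, 26.7 ± 3.91 and 19.1 ± 0.842 CPM, high with either label alone and low with both or neither (-0.98 ± 0.19, edgeR adjusted p = 0.00786).

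The interaction of Mrps5 passed under every alternative run, including each library left out (edgeR adjusted p up to 0.0465). Corrected for GC content and length, 4 of the 13 passed, namely Mrps5 (0.64 ± 0.13, edgeR adjusted p = 0.0149), Mrpl57 (0.80 ± 0.13, 0.00849), Mrpl1 (-0.69 ± 0.17, 0.0325) and Mrpl18 (-0.59 ± 0.12, 0.0189). The other 9 did not. Among them the interaction stayed close in size for Mrpl16 (0.64 ± 0.20, edgeR adjusted p = 0.0825), Mrpl39 (-0.37 ± 0.12, 0.0836) and Mrps22 (-0.48 ± 0.15, 0.082). It shrank by more than 1.5 times for Mrps34 (0.55, 0.12), Mrpl52 (0.33, 0.204), Mrpl2 (0.32, 0.3), Mrpl14 (0.29, 0.329), Mrpl12 (0.25, 0.353) and Mrpl28 (0.24, 0.346). Over all 77 genes the corrected interaction gave 3 positive calls (3.9%, against 2.2% of all genes) and 4 negative (5.19%, against 2.92%). Mrps14 (0.78 ± 0.18, edgeR adjusted p = 0.0283), Mrpl4 (-0.405 ± 0.107, 0.046) and Mrps18b (-0.88 ± 0.23, 0.0426) passed in addition. At an unadjusted p under 0.05, 9 were positive (11.7%, against 8.54%) and 15 negative (19.5%, against 12.4%). Their median was -0.065, beside -0.054 for all genes. Without the correction, 6 of the 38 genes above the median GC content passed as positive and 1 as negative. Of the 39 genes at or below it, 3 passed as positive and 3 as negative.

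Other parts of the mitochondrial translation machinery were read from 7 lists. The 2 rRNAs of the ribosome are encoded in mitochondrial DNA. The RNA of the large subunit, mt-Rnr2, stood at 8747, 15340 and 12441 CPM in Ulk1OV and at 7063, 6863 and 7735 CPM in WT, without overlap, and rose by 0.75 ± 0.20 (edgeR adjusted p = 0.0467). The RNA of the small subunit, mt-Rnr1, stood at 4988, 8793 and 6856 CPM against 4442, 4030 and 4753 CPM (0.64 ± 0.22, edgeR adjusted p = 0.0903). Mitochondrially encoded genes as a whole took 7.45% ± 1.20 of counts in Ulk1OV and 5.25% ± 0.187 in WT (SD, n = 3 each), and their part in these values was not tested. In 5xFAD;Ulk1OV against Ulk1OV mt-Rnr2 fell by 0.73 (SE 0.20, edgeR adjusted p = 0.0482), or by 0.97 with the library labelled 5xFAD;Ulk1OV replicate 3 left out (0.0127). Neither call held when corrected for GC content and length (0.54 ± 0.18, edgeR adjusted p = 0.113, and -0.45 ± 0.18, 0.21).

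Of the 13 genes of mitochondrial transcription and RNA processing tested, 2 rose in Ulk1OV against WT and none fell, where 2.14% of all genes rose and 3.04% fell. Both are subunits of the mitochondrial RNase P that cuts tRNAs out of the primary transcript: Hsd17b10 (0.52 ± 0.10, edgeR adjusted p = 0.0251) and Trmt10c (0.45 ± 0.11, 0.0389). Corrected for GC content and length, Hsd17b10 passed (0.55 ± 0.08, edgeR adjusted p = 0.0105) and Trmt10c did not (0.31 ± 0.11, 0.135). In 5xFAD;Ulk1OV against Ulk1OV, 5 of the 13 fell and none rose, where 2.43% of all genes fell and 3.67% rose. They were Hsd17b10, Trmt10c, Pnpt1, Grsf1 and Lrpprc, the latter 3 acting in RNA decay, RNA granules and messenger stability. Trmt10c stood at 14.5, 13.5 and 14.0 CPM in 5xFAD;Ulk1OV and at 19.4, 19.1 and 19.7 CPM in Ulk1OV. Leaving out the library labelled 5xFAD;Ulk1OV replicate 3 kept 2 of the 5 calls, Pnpt1 and Trmt10c, and correcting for GC content and length kept 1, Hsd17b10 (-0.47 ± 0.08, edgeR adjusted p = 0.0187). In the interaction the same 5 passed as negative, and all 5 did so when that library was left out. In the corrected fit 1 of these interactions passed, Hsd17b10 (edgeR adjusted p = 0.00575), and Grsf1 (0.0653), Trmt10c (0.0832), Pnpt1 (0.101) and Lrpprc (0.13) did not.

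For the lists that follow, the shares of all genes called by edgeR were 2.14% higher and 3.04% lower in Ulk1OV against WT. In 5xFAD;Ulk1OV against Ulk1OV they were 3.67% and 2.43%. Among 12 translation factors tested, 1 changed: Tsfm, which recharges the elongation factor Tufm. It stood at 6.74, 9.97 and 8.83 CPM in Ulk1OV and at 13.5, 15 and 15.5 CPM in WT, and fell by 0.79 (SE 0.17, edgeR adjusted p = 0.0287). In 5xFAD;Ulk1OV it was at 18.6, 15.1 and 16.2 CPM, a rise of 0.96 ± 0.17 over Ulk1OV (edgeR adjusted p = 0.016). Both calls held in the corrected fit (edgeR adjusted p = 0.0251 and 0.0187) and when the library labelled 5xFAD;Ulk1OV replicate 3 was left out (0.0236 and 0.0127). Gadd45gip1, a large-subunit protein with a symbol of its own and 1 of 5 such genes, moved the same way: it stood at 9.30, 17.4 and 9.43 CPM in Ulk1OV and at 19.7, 20.1 and 19.5 CPM in WT (-0.72 ± 0.19, edgeR adjusted p = 0.0473). Its rise in 5xFAD;Ulk1OV over Ulk1OV (0.72 ± 0.19, edgeR adjusted p = 0.0424) did not pass with that library left out (0.0555). Neither call of Gadd45gip1 held in the corrected fit (edgeR adjusted p = 0.0774 and 0.0934).

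Of 22 assembly factors tested, Mrm1, which methylates the rRNA of the large subunit, fell in Ulk1OV against WT (-0.53 ± 0.13, edgeR adjusted p = 0.0379) and rose in 5xFAD;Ulk1OV against Ulk1OV (0.50 ± 0.13, 0.04, or 0.0305 with the library labelled 5xFAD;Ulk1OV replicate 3 left out). Corrected for GC content and length, neither held (-0.36 ± 0.12, edgeR adjusted p = 0.109, and 0.31 ± 0.12, 0.186). Of 9 genes of protein insertion and quality control, Yme1l1, a protease of the inner membrane, rose (0.47 ± 0.11, edgeR adjusted p = 0.0319) and then fell (-0.42 ± 0.11, 0.0378, or 0.0232 without that library) in the same 2 comparisons. In the corrected fit the rise held (0.33 ± 0.07, edgeR adjusted p = 0.0309) and the fall did not (-0.20 ± 0.07, 0.147). Of 17 mitochondrial aminoacyl-tRNA synthetases, none passed the edgeR test between groups. From the first to the fourth comparison, DESeq2 called 0, 0, 1 and 0 of them, and 2, 1, 3 and 2 reached an unadjusted p under 0.05 by edgeR. At that threshold 11.5% of all genes were higher and 12.6% lower in the third, and 12.7% and 12.1% in the fourth. The shares for the first 2 follow below. DESeq2 called 4.49% of all genes higher and 6.07% lower in the third. Lars2, the leucyl-tRNA synthetase, passed in the interaction (2.15 ± 0.51, edgeR adjusted p = 0.0181, or 0.00831 without that library), with 59.2, 94.6 and 47.9 CPM in Ulk1OV and 112.8, 267.3 and 91.2 CPM in 5xFAD;Ulk1OV. In 5xFAD against WT none of the 80 genes of the 7 lists passed by edgeR or DESeq2, with 8 at an unadjusted p under 0.05, where 6.0% of all genes were higher and 6.41% lower at that threshold. In 5xFAD;Ulk1OV against 5xFAD none passed by edgeR, with 14 at an unadjusted p under 0.05, where 8.36% of all genes were higher and 9.07% lower. Here DESeq2 called 1, Pnpt1.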

How the data were processed

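Total RNA of hippocampus was made into libraries with a NEBNext Ultra kit, per the labels' protocols. The deposited table holds raw counts per gene for 12 libraries, and the authors' tools, per the submitters' processing notes, were HISAT2 and featureCounts on mm10, with Trim Galore, FastQC, SAMtools and DESeq2. Tool versions, annotation and strand setting are not stated in these notes.

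The counts were tested with edgeR 4.0.16 (R 4.3.3) by the quasi-likelihood test on all 12 libraries with 1 mean per group, filterByExpr, TMM scaling and Benjamini-Hochberg adjustment over 17227 genes. Genes with an adjusted p under 0.05 count as called. Values in CPM use TMM-scaled library sizes, and logs a prior count of 1. Alternatives were DESeq2 1.42.0, its size factors, no filter, the replicate number as a block, a loess correction for GC content and length (span 0.4), both together, only the libraries compared, and each library left out. Exact permutation tests of 3 against 3 cannot go below p = 0.1 and were not used. Gene models came from GENCODE for GRCm38 (mm10) and promoters from RefSeq (GRCm38.p6). Scripts were tested on simulated counts.

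The members and lists were chosen with earlier results of these data known. Genes named are the called ones, those of smallest p per subunit and direction, the extremes of level and range, and genes whose symbol and place differ.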

Additional observations from a re-analysis of the deposited data

Results flagged for a closer look

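The interaction term of the edgeR fit had an adjusted p under 0.05 in 13 of the 77 genes. It asks whether the effect of ULK1 overexpression differs between the 5xFAD and the WT background. All 12 libraries were kept, without correction for GC content and length. As shares, 11.7% passed as positive and 5.19% as negative, against 6.8% and 5.96% of all genes tested. The log2 interactions of the large subunit were 0.897 for Mrpl52, 0.861 for Mrpl14, 0.792 for Mrpl2, 0.743 for Mrpl28, 0.698 for Mrpl16, 0.64 for Mrpl12 and 0.543 for Mrpl57, and on the negative side -0.981 for Mrpl1, -0.47 for Mrpl18 and -0.425 for Mrpl39. Those of the small subunit were 1.128 for Mrps34, 0.514 for Mrps5 and -0.565 for Mrps22. The calls of Mrpl1, Mrpl2, Mrpl14, Mrpl28, Mrpl52, Mrps34 and Mrps5 held with each of the 12 libraries left out, and those of Mrpl16, Mrpl18 and Mrpl39 ended for 8, 9 and 10 of them. The correction for GC content and length ended the calls of Mrpl2, Mrpl14, Mrpl28, Mrpl52 and Mrps34 (edgeR adjusted p = 0.3, 0.329, 0.346, 0.204 and 0.12). It also ended those of Mrpl12, Mrpl16, Mrpl39 and Mrps22 (edgeR adjusted p = 0.353, 0.0825, 0.0836 and 0.082). Those of Mrpl1, Mrps5, Mrpl18 and Mrpl57 passed under it (edgeR adjusted p = 0.0325, 0.0149, 0.0189 and 0.00849).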

How the results depend on the processing

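The number of the 77 genes called moved with the tool and the filter. DESeq2 called 1 in 5xFAD against WT, 6 in 5xFAD;Ulk1OV against 5xFAD, 11 in Ulk1OV against WT and 12 in 5xFAD;Ulk1OV against Ulk1OV, where edgeR called 0, 0, 5 and 6. With no filter edgeR called 2 and 7 in the first pair, and with DESeq2 size factors 1 in the second of these. Fitted on only the libraries compared, it called 2 in Ulk1OV against WT and 1 in 5xFAD;Ulk1OV against Ulk1OV. Shares of all genes under these 3 edgeR settings are not given, so the counts cannot be set against the whole test. Shares of all genes rose with DESeq2 as well. In Ulk1OV against WT it called 4.49% of all genes higher and 6.07% lower (of the 77, 7.79% and 6.49%), where edgeR called 2.14% and 3.04% of all. In 5xFAD;Ulk1OV against Ulk1OV it called 6.63% and 5.07% of all genes (of the 77, 11.7% and 3.9%), where edgeR called 3.67% and 2.43% of all.

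With the GC and length correction 3 genes were called in each of these latter comparisons, as also with the block added, and the interaction gave 7 in place of 13, or 4 with the block added. Genes at an unadjusted p under 0.05 in 5xFAD against WT went from 16 to 9, or 7 with the block, and in 5xFAD;Ulk1OV against 5xFAD from 24 to 14 with the block. The median log2 fold change turned from -0.063 to 0.018 (0.02 with the block) in the first and from 0.110 to -0.007 (-0.007 with the block) in the second. Signs also turned, without and with the block, for Mars2 (0.02 and 0.018) and mt-Rnr1 (0.042 and 0.038) in 5xFAD;Ulk1OV against 5xFAD, Aars2 (-0.037 and -0.034) and Aurkaip1 (-0.052 and -0.052) in 5xFAD;Ulk1OV against Ulk1OV, and Aurkaip1 in the interaction (-0.047 and -0.047). The cause was not tested.

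Leaving out 1 library at a time gave 0 (without 5xFAD replicate 2) to 4 (without 5xFAD replicate 1) genes called in 5xFAD;Ulk1OV against 5xFAD and 0 (without Ulk1OV replicate 3) to 6 (without 5xFAD replicate 1) in Ulk1OV against WT. It gave 0 (without 5xFAD;Ulk1OV replicate 1) to 9 (without Ulk1OV replicate 2) in 5xFAD;Ulk1OV against Ulk1OV and 8 (without Ulk1OV replicate 3) to 14 (without 5xFAD replicate 1) in the interaction. At an unadjusted p under 0.05 the ranges were 9 to 21, 15 to 24 and 14 to 23 in the first 3 comparisons. The median in 5xFAD;Ulk1OV against Ulk1OV ran from -0.072 to 0.083, the large minus small difference in 5xFAD;Ulk1OV against 5xFAD from -0.017 to 0.061, mt-Rnr1 there from -0.405 to 0.018 and Mrps2 in 5xFAD against WT from -0.034 to 0.186. Counts of all genes are given only for the fit without 5xFAD;Ulk1OV replicate 3. In 5xFAD;Ulk1OV against Ulk1OV, that fit called 883 of all genes higher and 739 lower, against 632 and 419 with every library kept. Calls over all genes thus moved too, and the ranges above cannot tell a shift of these genes from a shift of the whole test.

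The replicate block alone gave 0, 0, 4, 7 and 14 genes called. Shares of all genes with the block, alone or with the correction, are not given. The replicate numbers did not pair the libraries: of 18 same-numbered pairs 4 had a correlation over 0.1 (range -0.177 to 0.209), and 5 of 12 libraries correlated best with their own number.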
